A study of Mus musculus with 16 samples.

Results

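Osteoclast cultures from mice carrying an internal tandem duplication in Flt3 (FLT3 ITD) were compared with osteoclast cultures from mice lacking Ptprc, the gene for CD45 (Ptprc KO). The comparison held 8 of the 16 sequenced samples, 4 of each genotype, picked by their labels alone, and described expression across all genes. The FLT3 ITD knock-in mice had an intact Ptprc gene, the Ptprc KO mice had an unaltered Flt3 gene, and the labels place all lines on a C57BL/6J background. The 4 wild-type (WT) cultures and the 4 cultures with both alterations (FLT3 ITD Ptprc KO) were used for the estimate of spread and for side-by-side values. All cultures began as CD11b-positive bone marrow cells held for 3 days in M-CSF at 50 ng/ml, after which RANKL at 20 ng/ml was added to the M-CSF medium. RNA was collected on the appearance of the first mature osteoclasts, so the harvest day followed each culture's own pace and the day of single samples is not stated in the labels. The labels describe a FLT3 inhibitor for some experiments and assign it to none of these samples. They do not state which part of Ptprc was removed, what drives the Flt3 allele, or whether same-genotype samples came from separate animals, and the p-values speak only of the scatter among these cultures, which may be technical.

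FLT3 is a class III receptor tyrosine kinase of early haematopoietic cells, and internal tandem duplications in its juxtamembrane region, common in acute myeloid leukaemia, make it signal without ligand, with STAT5 among its outputs. CD45 is a receptor-like tyrosine phosphatase on the surface of nucleated blood cells. It removes the inhibitory phosphate of Src-family kinases and has been described as a phosphatase of FLT3 itself. Osteoclasts are multinucleated bone-resorbing cells of the myeloid lineage: RANKL acts through RANK, NF-kB and co-stimulatory receptors with ITAM adaptors to induce NFATc1, which drives genes of fusion and resorption. Because the genotypes differ at 2 loci, a difference between them can come from either alteration. For that reason the WT level is given beside each gene past the threshold and beside some others.

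FLT3 ITD cultures had higher Ptprc, Cdh13, Glrp1, Rbm44, Wdfy1, Xlr4c and Mospd3 and lower Vsig4 and Paqr9 than Ptprc KO cultures. No gene of the resorption, fusion or RANK signalling lists was among them. Of 12093 genes tested with edgeR's quasi-likelihood test and Benjamini-Hochberg adjustment over all of them, 9 passed an adjusted p of 0.05, which is 0.0744% of the genes tested. They comprised 7 higher genes (0.0579%) and 2 lower genes (0.0165%). For 304 genes (2.51%), every FLT3 ITD culture lay on the same side of every Ptprc KO culture, 132 of them higher (1.09%) and 172 lower (1.42%). At an unadjusted p under 0.05 there were 473 genes (3.91%), 275 higher (2.27%) and 198 lower (1.64%), where evenly spread p-values would give 605. The count of 9 became 3 with replicate number as a block in the same fit, 2 to 4 when any 1 library other than FLT3 ITD replicate 4 was left out, 15 without FLT3 ITD replicate 4, 3 with FLT3 ITD replicates 1 and 3 summed, 48 with DESeq2 and 374 with limma voom and quality weights. The log2 fold changes of all tested genes had a median of 0.02, and 6429 of them (53.2%) were above 0.

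**Figure D1:**
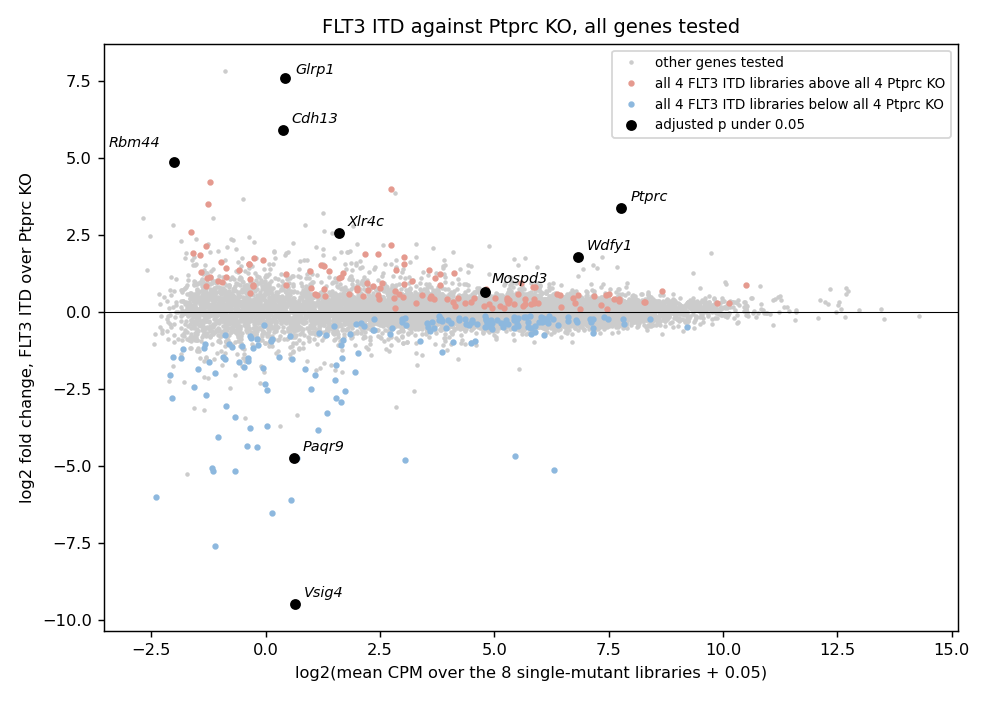
Log2 fold change of FLT3 ITD over Ptprc KO cultures (vertical axis) against mean expression in the 8 libraries, log2(mean CPM + 0.05), for the 12093 genes tested. Coloured points are genes whose libraries do not overlap between the genotypes, black points the 9 genes past an adjusted p of 0.05, which spread from low to high expression.

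Levels are given as counts per 1000000 counts of the TMM-normalised library (CPM). Library totals lay between 25011720 and 32355800 counts in FLT3 ITD and between 24211724 and 29603754 counts in Ptprc KO cultures. Several libraries stood apart within their genotype. A principal component analysis of the 1000 genes with the highest variance put 69.2% of it on the first axis, of which 0.181% lay between genotypes. This axis separated replicate 4 of each genotype from the others. FLT3 ITD replicate 4 scored 70.4 and Ptprc KO replicate 4 scored 49.5, against -26.6 to -18.1 in the other FLT3 ITD and -28.6 to -12 in the other Ptprc KO libraries. The second component held 15.1% of the variance with 95.7% of it between genotypes. FLT3 ITD replicates 1 and 3 were nearly alike, with a chi-square of 2.76 per gene, where the next closest pair among all libraries, Ptprc KO replicates 2 and 3, reached 12.8. Both were kept as separate samples, as labelled. The labels do not say whether they share material, and with the pair summed into 1 library the count of genes past the threshold was 3. In FLT3 ITD replicate 2, expression relative to the mean of all libraries fell with the deposited gene length (Spearman rho -0.531 across 9621 genes), and in FLT3 ITD replicate 4 rho was -0.204. In the other 6 single-mutant libraries it was 0.0326 to 0.148. The causes of these differences were not tested. Values without these libraries are given beside results that they moved.

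**Figure D2:**
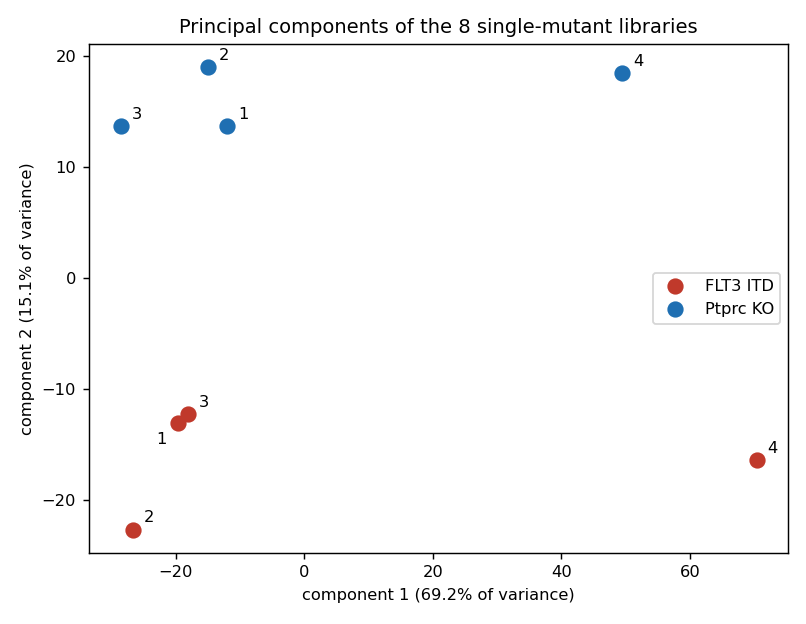
Scores of the 8 single-mutant libraries on the first 2 principal axes of the 1000 highest-variance genes (arbitrary units, share of variance on each axis), numbered by replicate. Both replicates 4 lie far to the right, and the second component separates FLT3 ITD libraries (-22.7 to -12.3) from Ptprc KO libraries (13.6 to 19.0).

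The altered genes were examined first. Ptprc (ENSMUSG00000026395, chr1:138062861-138175708), which encodes CD45, read 416, 230.2, 414 and 543 CPM in FLT3 ITD replicates 1 to 4, against 41.5, 36.6, 30.8 and 45.8 CPM in Ptprc KO replicates 1 to 4. All Ptprc KO libraries were far below all FLT3 ITD libraries, among which replicate 2 was the lowest. The means were 401 ± 129 CPM in FLT3 ITD and 38.7 ± 6.45 CPM in Ptprc KO cultures (SD, n = 4 each), so that the Ptprc KO level was 9.65% of the FLT3 ITD level (log2 fold change of FLT3 ITD over Ptprc KO 3.37, SE 0.25, adjusted p 1.28e-05). WT libraries had 412 to 472 CPM. Ptprc passed the test in all 8 fits that left out a library and in all 15 other settings. For Flt3 (ENSMUSG00000042817, chr5:147330741-147400489) the counts were 10 to 20 per library in FLT3 ITD and 14 to 36 in Ptprc KO cultures, or 0.504 ± 0.222 CPM in FLT3 ITD and 0.798 ± 0.288 CPM in Ptprc KO (SD, n = 4 each). It did not pass the test (log2 fold change -0.67, SE 0.60, adjusted p 0.885). The groups overlapped. Gene totals hold no record of the duplicated segment.

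Among the other 8 genes that passed the test, 4 had FLT3 ITD levels away from WT at an adjusted p under 0.05, namely Cdh13, Wdfy1, Paqr9 and Vsig4. Glrp1 and Rbm44 had Ptprc KO levels away from WT by the same threshold, and Xlr4c and Mospd3 passed against WT in neither genotype. Over all genes, 5 passed for FLT3 ITD against WT (0.0413%) and 4 for Ptprc KO against WT (0.0331%). These comparisons share libraries with the one between the single mutants and are given only to place the values.

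Cdh13 (ENSMUSG00000031841, chr8:118283733-119324921) encodes T-cadherin, a cadherin held to the membrane by a GPI anchor. It read 3.01, 2.34, 2.91 and 1.54 CPM in FLT3 ITD replicates 1 to 4, against 0, 0.0876, 0.0378 and 0.0357 CPM in Ptprc KO replicates 1 to 4. Every FLT3 ITD library was above every Ptprc KO library, and the Ptprc KO libraries held 4 Cdh13 counts in all against 280 in FLT3 ITD. The gene rose in FLT3 ITD cultures (log2 fold change 5.89, SE 0.66, adjusted p 0.00175). WT libraries had 0.0265 to 0.178 CPM and double mutant libraries 0.21 to 0.586 CPM, and the log2 fold change over WT was 4.96 (SE 0.60, adjusted p 0.00921) in FLT3 ITD and -0.93 (SE 0.77, adjusted p 1) in Ptprc KO cultures. Cdh13 passed in all 8 fits without a library and in the 12 of 15 other settings that measured it.

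Wdfy1 (ENSMUSG00000073643, chr1:79702262-79776143) encodes an endosomal protein with WD40 repeats and a FYVE domain that takes part in Toll-like receptor signalling. It read 190.1, 211, 179 and 121 CPM in FLT3 ITD replicates 1 to 4, against 37.6, 65.5, 64 and 36.7 CPM in Ptprc KO replicates 1 to 4. The lowest FLT3 ITD library, replicate 4, was above the highest Ptprc KO library. Wdfy1 averaged 175 ± 38.6 CPM in FLT3 ITD and 50.9 ± 16 CPM in Ptprc KO cultures (SD, n = 4 each) and rose in FLT3 ITD (log2 fold change 1.78, SE 0.28, adjusted p 0.0273). WT libraries, at 37.9 to 50.5 CPM, were near the Ptprc KO level, and the log2 fold change over WT was 2.03 (SE 0.28, adjusted p 0.0207) in FLT3 ITD and 0.25 (SE 0.27, adjusted p 1) in Ptprc KO cultures. Double mutant libraries read 44.7 to 97 CPM, so their highest value was below every FLT3 ITD value. Part of Mrpl44 lies on the opposite strand of Wdfy1, and as neither labels nor headers state whether counting was strand-aware, the split of reads between them is uncertain. The adjusted p was 0.096 with the replicate block, and the call held in 1 of 8 fits without a library and in 9 of 15 other settings.

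**Figure D3:**
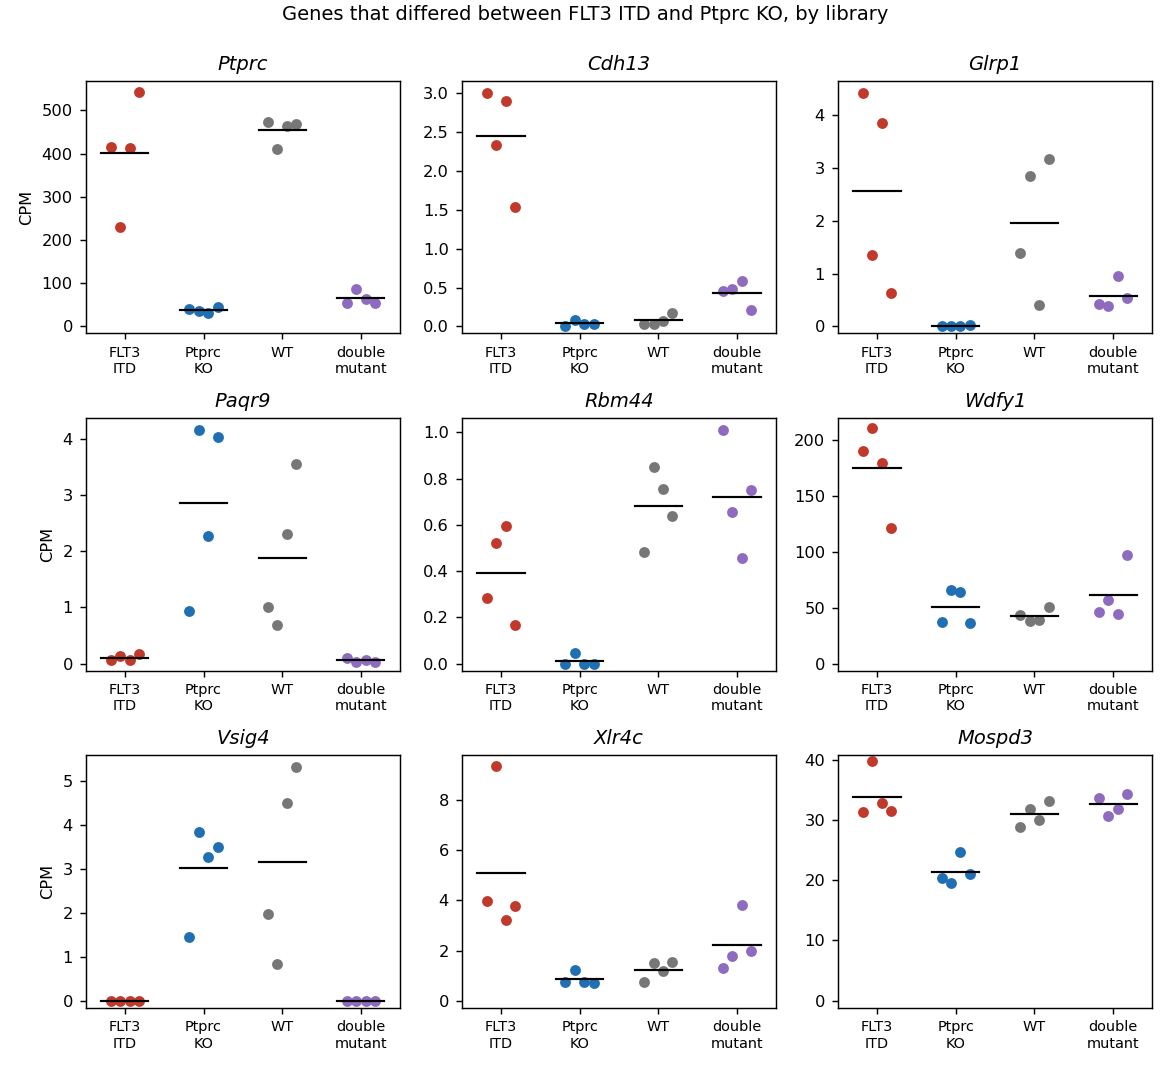
CPM by library for the 9 genes past an adjusted p of 0.05 in FLT3 ITD, Ptprc KO, WT and FLT3 ITD Ptprc KO cultures, with the group mean as a black line (n = 4 each). In every panel the FLT3 ITD and Ptprc KO points do not overlap.

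Both lower genes are known from outside the resorption programme. Vsig4 (ENSMUSG00000044206, chrX:96247203-96293438) encodes CRIg, a complement receptor of tissue-resident macrophages. No Vsig4 count was found in any FLT3 ITD library, against 1.44, 3.85, 3.29 and 3.5 CPM in Ptprc KO replicates 1 to 4. The totals were 0 counts in FLT3 ITD and 321 in Ptprc KO libraries, so Vsig4 was at least 107-fold lower in FLT3 ITD, taking 3 counts over the group as the limit that a count of 0 allows (adjusted p 0.0331). WT libraries had 0.849 to 5.33 CPM and the double mutant libraries held no Vsig4 count. The adjusted p against WT was 0.0436 for FLT3 ITD, while Ptprc KO had a log2 fold change over WT of -0.07 (SE 0.58, adjusted p 1). Paqr9 (ENSMUSG00000064225, chr9:95559657-95568023), a membrane receptor of the progestin and adiponectin receptor family, read 0.0627, 0.13, 0.0625 and 0.167 CPM in FLT3 ITD replicates 1 to 4, against 0.932, 4.16, 2.27 and 4.04 CPM in Ptprc KO replicates 1 to 4. The highest FLT3 ITD value was below the lowest Ptprc KO value, and the gene fell in FLT3 ITD (log2 fold change -4.74, SE 0.67, adjusted p 0.0133). WT libraries had 0.69 to 3.55 CPM and double mutant libraries 0.03 to 0.0919 CPM. The log2 fold change over WT was -4.15 (SE 0.66, adjusted p 0.0436) in FLT3 ITD and 0.59 (SE 0.53, adjusted p 1) in Ptprc KO cultures. With the replicate block the adjusted p was 0.166 for Vsig4 and 0.0329 for Paqr9. Without a library, the Vsig4 call held in 1 and the Paqr9 call in 4 of 8 fits.

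Glrp1 and Rbm44 were nearly silent in Ptprc KO cultures. Glrp1 (ENSMUSG00000062310, chr1:88499871-88510066), a glutamine-repeat protein gene, read 4.42, 1.34, 3.85 and 0.624 CPM in FLT3 ITD replicates 1 to 4, against 0, 0, 0 and 0.0357 CPM in Ptprc KO replicates 1 to 4. Its FLT3 ITD libraries ranged over several-fold, with replicates 1 and 3 high and replicate 4 low, and all stood above the single count of the Ptprc KO libraries. The totals were 310 counts in FLT3 ITD and 1 in Ptprc KO, a ratio of 309 with an exact binomial 95% interval of 55.0 to 12233 that covers counting error only (adjusted p 0.0133). Rbm44 (ENSMUSG00000070732, chr1:91145089-91170795) encodes an RNA-binding protein known from mouse germ cells. It read 0.282, 0.52, 0.594 and 0.167 CPM in FLT3 ITD replicates 1 to 4, against 0, 0.0438, 0 and 0 CPM in Ptprc KO replicates 1 to 4. All FLT3 ITD libraries were above all Ptprc KO libraries at low counts, with 44 counts against 1, a ratio of 43.8 (95% interval 7.46 to 1770, adjusted p 0.0268). WT libraries had 0.412 to 3.16 CPM of Glrp1 and 0.484 to 0.849 CPM of Rbm44, and the double mutant, which also lacks Ptprc, had 0.38 to 0.944 CPM of Glrp1 and 0.456 to 1.01 CPM of Rbm44. The log2 fold change over WT was 0.40 (SE 0.64, adjusted p 0.856) in FLT3 ITD and -7.20 (SE 1.06, adjusted p 0.0222) in Ptprc KO for Glrp1, and for Rbm44 -0.80 (SE 0.47, adjusted p 0.615) in FLT3 ITD and -5.67 (SE 0.73, adjusted p 0.00702) in Ptprc KO. With the replicate block the adjusted p was 0.0805 for Glrp1 and 0.0921 for Rbm44, and without a library the Glrp1 call held in 4 and the Rbm44 call in 2 of 8 fits.

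The last pair were Xlr4c and Mospd3. Xlr4c (ENSMUSG00000031362, chrX:73233688-73243130), of the X-linked lymphocyte-regulated family, read 3.98, 9.36, 3.22 and 3.79 CPM in FLT3 ITD replicates 1 to 4, against 0.752, 1.23, 0.756 and 0.715 CPM in Ptprc KO replicates 1 to 4. The FLT3 ITD libraries were all higher, replicate 2 most of all, and the gene rose (log2 fold change 2.56, SE 0.43, adjusted p 0.0437). WT libraries had 0.761 to 1.53 CPM and double mutant libraries 1.29 to 3.81 CPM, and the log2 fold change over WT was 2.03 (SE 0.42, adjusted p 0.158) in FLT3 ITD and -0.53 (SE 0.42, adjusted p 1) in Ptprc KO cultures. Of the 75-base words in its transcripts, 49.2% also occur in Xlr4b and 41.5% in Xlr4a, and it overlaps Xlr5a on the same strand, so the assignment of reads within the family is uncertain. Xlr4b itself read 9.9, 21.3, 9.97 and 7.29 CPM in FLT3 ITD replicates 1 to 4, against 3.79, 4.07, 4.84 and 3.86 CPM in Ptprc KO replicates 1 to 4 and did not pass (log2 fold change 1.55, SE 0.35, adjusted p 0.245). Mospd3 (ENSMUSG00000037221, chr5:137596645-137601058), a membrane protein with a major sperm protein domain, had the smallest difference of the genes past the threshold. It read 31.4, 39.8, 32.8 and 31.5 CPM in FLT3 ITD replicates 1 to 4, against 20.5, 19.6, 24.7 and 21 CPM in Ptprc KO replicates 1 to 4, with little spread within either genotype and no overlap. The means were 33.9 ± 4.01 CPM in FLT3 ITD and 21.5 ± 2.24 CPM in Ptprc KO cultures (SD, n = 4 each), a rise in FLT3 ITD (log2 fold change 0.66, SE 0.11, adjusted p 0.0456). WT libraries, at 28.8 to 33.2 CPM, were near FLT3 ITD, and the log2 fold change over WT was 0.13 (SE 0.11, adjusted p 0.715) in FLT3 ITD and -0.53 (SE 0.11, adjusted p 0.376) in Ptprc KO cultures. The double mutant libraries, which also lack Ptprc, read 30.8 to 34.3 CPM, above every Ptprc KO value. With the replicate block the adjusted p was 0.0805 for Xlr4c and 0.166 for Mospd3, and each call held in 1 of 8 fits without a library.

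Upstream sequence from RefSeq (GRCm38.p6) was at hand for Vsig4, Mospd3, Glrp1 and Xlr4c. The set of sequences used held no matching entry for Cdh13, Wdfy1, Paqr9 and Rbm44, and Ptprc was not looked up. The 250 bases before the start are shown 5′ to 3′ for the gene with no counts in FLT3 ITD (Vsig4, chrX:96293439-96293688, minus strand), for Cd5l, the macrophage gene described next (chr3:87357631-87357880, plus strand), for Mospd3, the tightest of the higher genes (chr5:137601060-137601309, minus strand), and for Glrp1 (chr1:88510067-88510316, minus strand). Capitals mark matches, on either strand, to GAGGAA, the core bound by the myeloid factor PU.1, or to TGANTCA, the AP-1 site.
Vsig4: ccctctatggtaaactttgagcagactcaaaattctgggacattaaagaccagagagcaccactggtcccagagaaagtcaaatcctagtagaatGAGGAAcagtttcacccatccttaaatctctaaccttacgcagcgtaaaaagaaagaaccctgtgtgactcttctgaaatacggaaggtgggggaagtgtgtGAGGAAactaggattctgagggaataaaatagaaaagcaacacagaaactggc
Cd5l: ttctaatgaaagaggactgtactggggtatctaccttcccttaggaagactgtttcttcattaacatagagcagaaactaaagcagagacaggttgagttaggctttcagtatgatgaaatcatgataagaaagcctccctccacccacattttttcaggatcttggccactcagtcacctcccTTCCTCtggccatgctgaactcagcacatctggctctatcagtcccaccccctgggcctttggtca
Mospd3: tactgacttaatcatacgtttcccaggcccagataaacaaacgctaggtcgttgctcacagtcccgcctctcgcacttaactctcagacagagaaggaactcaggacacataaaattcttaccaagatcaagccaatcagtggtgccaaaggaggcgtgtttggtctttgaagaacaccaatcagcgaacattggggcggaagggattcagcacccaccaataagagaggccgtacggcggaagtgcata
Glrp1: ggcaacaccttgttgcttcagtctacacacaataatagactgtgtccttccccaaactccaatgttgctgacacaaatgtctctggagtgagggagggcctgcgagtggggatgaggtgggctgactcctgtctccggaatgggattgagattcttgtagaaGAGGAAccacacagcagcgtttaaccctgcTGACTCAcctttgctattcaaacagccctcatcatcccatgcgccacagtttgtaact
The PU.1 core occurred 2 times before Vsig4, 1 time before Cd5l, as TTCCTC, and 1 time before Glrp1, which also held 1 AP-1 match. Over 32851 windows of this length, 23.3% held the PU.1 core and 6.75% the AP-1 letters. The STAT letters TTCNNNGAA (7.02% of windows) and the E-box CACGTG of the MITF family (6.02%) were found in none of these 4 windows, nor was any of the 4 motifs before Mospd3. A match describes letters only.

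A further 21 genes were named by low unadjusted p and non-overlapping libraries at a mean of at least 5 CPM without passing the threshold, 9 higher and 12 lower in FLT3 ITD. The first of them by p were C1qtnf6, Gdf3, Shroom3, Cd5l and Lzts2. C1qtnf6, a secreted protein of the C1q and TNF-related family, read 10.1, 9.49, 8.79 and 21.8 CPM in FLT3 ITD replicates 1 to 4, against 3.64, 3.02, 2.8 and 4.93 CPM in Ptprc KO replicates 1 to 4, with FLT3 ITD replicate 4 far above the rest (log2 fold change 1.80, SE 0.32, adjusted p 0.063). Gdf3, a ligand of the TGF-beta family, read 0.157, 0.433, 0.25 and 1.5 CPM in FLT3 ITD replicates 1 to 4, against 13, 7.92, 10.3 and 32.5 CPM in Ptprc KO replicates 1 to 4 (log2 fold change -4.79, SE 0.86, adjusted p 0.063). All Ptprc KO values were above 5 times every FLT3 ITD value, and WT libraries lay at 1.94 to 24.1 CPM. Shroom3, an actin-binding regulator of cell shape, read 9.34, 27.6, 9.63 and 3.29 CPM in FLT3 ITD replicates 1 to 4, against 0.662, 0.963, 0.982 and 0.5 CPM in Ptprc KO replicates 1 to 4 (log2 fold change 4.00, SE 0.74, adjusted p 0.0722). The FLT3 ITD libraries differed widely among themselves, replicate 2 being the highest, while WT libraries had 0.484 to 1.74 CPM, near the Ptprc KO values. Lzts2, a leucine zipper protein, read 24.1, 31.8, 25.1 and 17.4 CPM in FLT3 ITD replicates 1 to 4, against 7.07, 13.4, 12.6 and 7.65 CPM in Ptprc KO replicates 1 to 4 (log2 fold change 1.27, SE 0.25, adjusted p 0.0857), WT libraries lay at 6.6 to 10.9 CPM, and the gene overlaps Pdzd7 on the opposite strand. Without FLT3 ITD replicate 4, Gdf3, Shroom3 and Lzts2 passed the threshold, with adjusted p of 0.0301, 0.0301 and 0.0440.

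Trip6 and Steap3 were set apart from these by WT levels on the FLT3 ITD side. WT means were also nearer FLT3 ITD for Ddx59, Zfp281 and Rnf6, and nearer Ptprc KO for Vcam1, Ccdc93, Marveld1, Trim47 and Ap4m1. Trip6, a LIM-domain protein of adhesion sites, read 9.71, 9.66, 8.69 and 5.04 CPM in FLT3 ITD replicates 1 to 4, against 20.1, 28.2, 16.8 and 16.7 CPM in Ptprc KO replicates 1 to 4 (log2 fold change -1.30, SE 0.31, adjusted p 0.294), with 5.36 to 8.1 CPM in WT libraries. Double mutant libraries, which also lack Ptprc, had 2.32 to 6.97 CPM of Trip6, below every Ptprc KO value. Steap3, a reductase of endosomal iron uptake, read 114, 132, 111 and 81.4 CPM in FLT3 ITD replicates 1 to 4, against 159, 181, 187 and 177 CPM in Ptprc KO replicates 1 to 4 (log2 fold change -0.68, SE 0.14, adjusted p 0.151), with 102 to 129 CPM in WT libraries. Double mutant libraries had 95.8 to 128 CPM of Steap3, also below every Ptprc KO value. Of the other lower genes, Vcam1, an adhesion molecule of macrophages and endothelium, had the largest log2 fold change. It read 0.909, 0.606, 1.09 and 10.9 CPM in FLT3 ITD replicates 1 to 4, against 14.7, 75.2, 34.8 and 214 CPM in Ptprc KO replicates 1 to 4, where the replicate 4 of each genotype was the highest (log2 fold change -4.66, SE 1.31, adjusted p 0.624). The remaining lower genes had log2 fold changes of -0.94 (SE 0.20) for Ddx59, an RNA helicase, -0.52 (SE 0.12) for Zfp281, a zinc finger transcription factor, -0.74 (SE 0.22) for Ccdc93, of an endosomal recycling complex, and -0.44 (SE 0.11) for Marveld1, a MARVEL-domain protein. For the ubiquitin ligases Trim47 and Rnf6 they were -0.54 (SE 0.15) and -0.29 (SE 0.09), and for Ap4m1, a subunit of the AP-4 adaptor, -0.42 (SE 0.12). Ap4m1 overlaps Mcm7 and Taf6 on the opposite strand and Trim47 overlaps Trim65 on the same strand, so reads may be shared. The remaining higher genes had log2 fold changes of 1.37 (SE 0.33) for Igf2bp2, an mRNA-binding protein, 1.01 (SE 0.28) for Eya4, a phosphatase and transcriptional co-activator, 0.74 (SE 0.19) for Mt2, a metallothionein, and 0.68 (SE 0.17) for Cyp2j6, a cytochrome P450. Rgs2, a negative regulator of G-protein signalling, read 49.7, 54.1, 45.8 and 104 CPM in FLT3 ITD replicates 1 to 4, against 32.7, 34.2, 35 and 30.5 CPM in Ptprc KO replicates 1 to 4, with FLT3 ITD replicate 4 the highest (log2 fold change 0.94, SE 0.25, adjusted p 0.494).

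Vsig4 and Cd5l belong to the list of resident macrophage markers, in which 4 of 12 tested members had a positive log2 fold change and 8 a negative one, with a median of -0.30. Vsig4 alone passed the test, and 4 of the 12 lay wholly below the Ptprc KO libraries, against 1.42% of all genes. The list was chosen with earlier results of these data known, so the 2 shares are not an independent comparison. Cd5l, a secreted scavenger-receptor protein of macrophages, read 2.6, 2.3, 2.19 and 10.5 CPM in FLT3 ITD replicates 1 to 4, against 40.5, 184, 95.7 and 295 CPM in Ptprc KO replicates 1 to 4 (log2 fold change -5.14, SE 0.98, adjusted p 0.0799). Its highest FLT3 ITD value, in replicate 4, was below the lowest Ptprc KO value, and WT libraries lay at 35.2 to 222 CPM. Timd4, a phosphatidylserine receptor, read 0.125, 0.0433, 0.0313 and 0.0416 CPM in FLT3 ITD replicates 1 to 4, against 0.331, 2.54, 0.793 and 1.71 CPM in Ptprc KO replicates 1 to 4 (log2 fold change -4.34, SE 1.02, adjusted p 0.275), and Cd163, the haemoglobin scavenger receptor, read 0.345, 0.13, 0.594 and 0.125 CPM in FLT3 ITD replicates 1 to 4, against 0.722, 2.63, 0.982 and 1.96 CPM in Ptprc KO replicates 1 to 4 (log2 fold change -2.34, SE 0.78, adjusted p 0.883). Other markers of the same list did not separate. C1qa, a chain of complement C1q, read 37.5, 19.3, 40.5 and 501 CPM in FLT3 ITD replicates 1 to 4, against 40.3, 84.5, 39.8 and 463 CPM in Ptprc KO replicates 1 to 4 (log2 fold change -0.07, SE 1.19), with each replicate 4 more than 5 times the others. Mrc1, the mannose receptor, had a log2 fold change of -0.48 (SE 0.87), and Marco, a scavenger receptor, had 1.51 (SE 0.76). The mean log2 CPM over the list was 2.18, 1.49, 2.24 and 3.97 in FLT3 ITD replicates 1 to 4, against 3.10, 4.23, 3.39 and 5.29 in Ptprc KO replicates 1 to 4, so each FLT3 ITD library was below the Ptprc KO library of the same number while the ranges overlapped. In bulk RNA, fewer cells of a type and less RNA per cell cannot be told apart. Without FLT3 ITD replicate 4 the median of the list was -2.04, without Ptprc KO replicate 4 it was 0.43, and without both it was -0.67. With FLT3 ITD libraries 1 and 3 summed and library 2 left out it was 0.09.

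Genes near the altered loci were counted separately. Chromosome 1, which carries Ptprc, held 5.97% of the genes tested. It also held 9 of the 30 named genes and 4 of the 9 that passed, Ptprc itself included in both counts. Of its 722 tested genes 30 did not overlap between the genotypes (4.16%, against 2.51% of all genes), and 49 had an unadjusted p under 0.05 (6.79%, against 3.91%). Chromosome X, which carries neither altered gene, had as high a share without overlap (16 of 383, 4.18%), and chromosome 13 had 3.62% and chromosome 5 3.53%. At an unadjusted p under 0.05 the shares were 3.92% on chromosome X, 4.48% on chromosome 13 and 5.24% on chromosome 5. Of the 100 genes of lowest p, 16 were on chromosome 1, Ptprc included, and 13 on chromosome 5. Within 20 Mb of Ptprc, 146 genes were tested besides Ptprc, 3 were wholly higher and 7 wholly lower in FLT3 ITD (6.85%), 15 had an unadjusted p under 0.05 (10.3%), and none passed the adjusted threshold. The share without overlap was 7.69% within 10 Mb, 3.74% within 40 Mb and 4.37% within 80 Mb. Of the named genes, Zfp281 and Ddx59 lie 1.49 and 1.69 Mb from Ptprc, Rgs2 5.88 Mb, Ccdc93 16.7 Mb and Steap3 17.9 Mb. Rbm44, Glrp1 and Wdfy1 are at 47.0, 49.6 and 58.4 Mb. Chromosome 5, which carries Flt3, held 6.32% of the genes tested and 5 of the 30 named genes. Within 10 Mb of Flt3, 134 genes were tested, and 4 were wholly higher and 5 wholly lower (6.72%). Of these 134 genes, 13 had an unadjusted p under 0.05 (9.70%), and 1, Mospd3, passed. The share without overlap was 5.34% within 20 Mb and 3.40% within 40 Mb. The altered alleles and the sequence linked to them cannot be told apart in this design.

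No resorption gene passed the test, and their log2 fold changes were small beside the spread of the cultures. Among the proteases, proton pump subunits and channels of this list, 8 of 17 tested members had a positive log2 fold change and 9 a negative one, with a median of -0.04 and a range of -0.19 to 0.19, beside a median of 0.02 over all genes. Ctsk, the collagen-degrading cathepsin K, read 12258, 18506, 11778 and 4203 CPM in FLT3 ITD replicates 1 to 4, against 5959.6, 16696, 14899.9 and 6177 CPM in Ptprc KO replicates 1 to 4 (log2 fold change 0.10, SE 0.60, adjusted p 0.979). Replicate 4 of FLT3 ITD and replicates 1 and 4 of Ptprc KO were the lowest, and the spread within a genotype exceeded the difference between them. Acp5, tartrate-resistant acid phosphatase, had a log2 fold change of 0.07 (SE 0.55), Mmp9, a gelatinase, -0.14 (SE 0.55), and Car2, carbonic anhydrase, -0.08 (SE 0.64). With standard errors of this size (0.60 for Ctsk), differences of 2-fold and well above it could be missed for these genes. Shroom3, at a log2 fold change of 4.00 (SE 0.74), did not pass the same test. The mean log2 CPM of the list was 10.34, 10.36, 10.31 and 9.07 in FLT3 ITD replicates 1 to 4, against 9.51, 10.58, 10.51 and 9.59 in Ptprc KO replicates 1 to 4. Its median log2 fold change was 0.20 without FLT3 ITD replicate 4 and -0.15 without Ptprc KO replicate 1. With FLT3 ITD libraries 1 and 3 summed and library 2 left out it was -0.33.

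None of the fusion and identity genes passed either, and 6 of 18 tested members had a positive log2 fold change and 12 a negative one, with a median of -0.07. That median was 0.06 without FLT3 ITD replicate 4, and -0.30 with FLT3 ITD libraries 1 and 3 summed and library 2 left out. Nfatc1, the master factor of osteoclast differentiation, read 587, 319, 572 and 127 CPM in FLT3 ITD replicates 1 to 4, against 502, 759.8, 609.8 and 382 CPM in Ptprc KO replicates 1 to 4 (log2 fold change -0.49, SE 0.51, adjusted p 0.889). Calcr, the calcitonin receptor, read 89, 70.5, 87.4 and 32.2 CPM in FLT3 ITD replicates 1 to 4, against 67.6, 226, 193 and 63.4 CPM in Ptprc KO replicates 1 to 4 (log2 fold change -0.98, SE 0.55, adjusted p 0.883). In both, the groups overlapped, with Ptprc KO replicates 2 and 3 the highest. Cd9, a tetraspanin of the fusion process, read 393, 558, 380.4 and 671 CPM in FLT3 ITD replicates 1 to 4, against 263, 334, 352 and 309 CPM in Ptprc KO replicates 1 to 4, with no overlap (log2 fold change 0.67, SE 0.21, adjusted p 0.838). Of RANK and NF-kB genes, 6 of 25 members were positive in log2 fold change and 19 negative (median -0.07), and RANK itself (Tnfrsf11a) had a log2 fold change of -0.07 (SE 0.22). Of transcriptional repressors of differentiation, 9 of 11 tested members had a positive log2 fold change and 2 a negative one, with a median of 0.25. Irf8, which restrains NFATc1, read 14, 8.23, 14.9 and 87.4 CPM in FLT3 ITD replicates 1 to 4, against 12.9, 16.6, 10.0 and 65.3 CPM in Ptprc KO replicates 1 to 4, so that the replicate 4 of each genotype was well above the rest. Among coupling factors from osteoclasts to bone formation, 7 of 10 members were positive in log2 fold change and 3 negative (median 0.08).

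**Figure D4:**
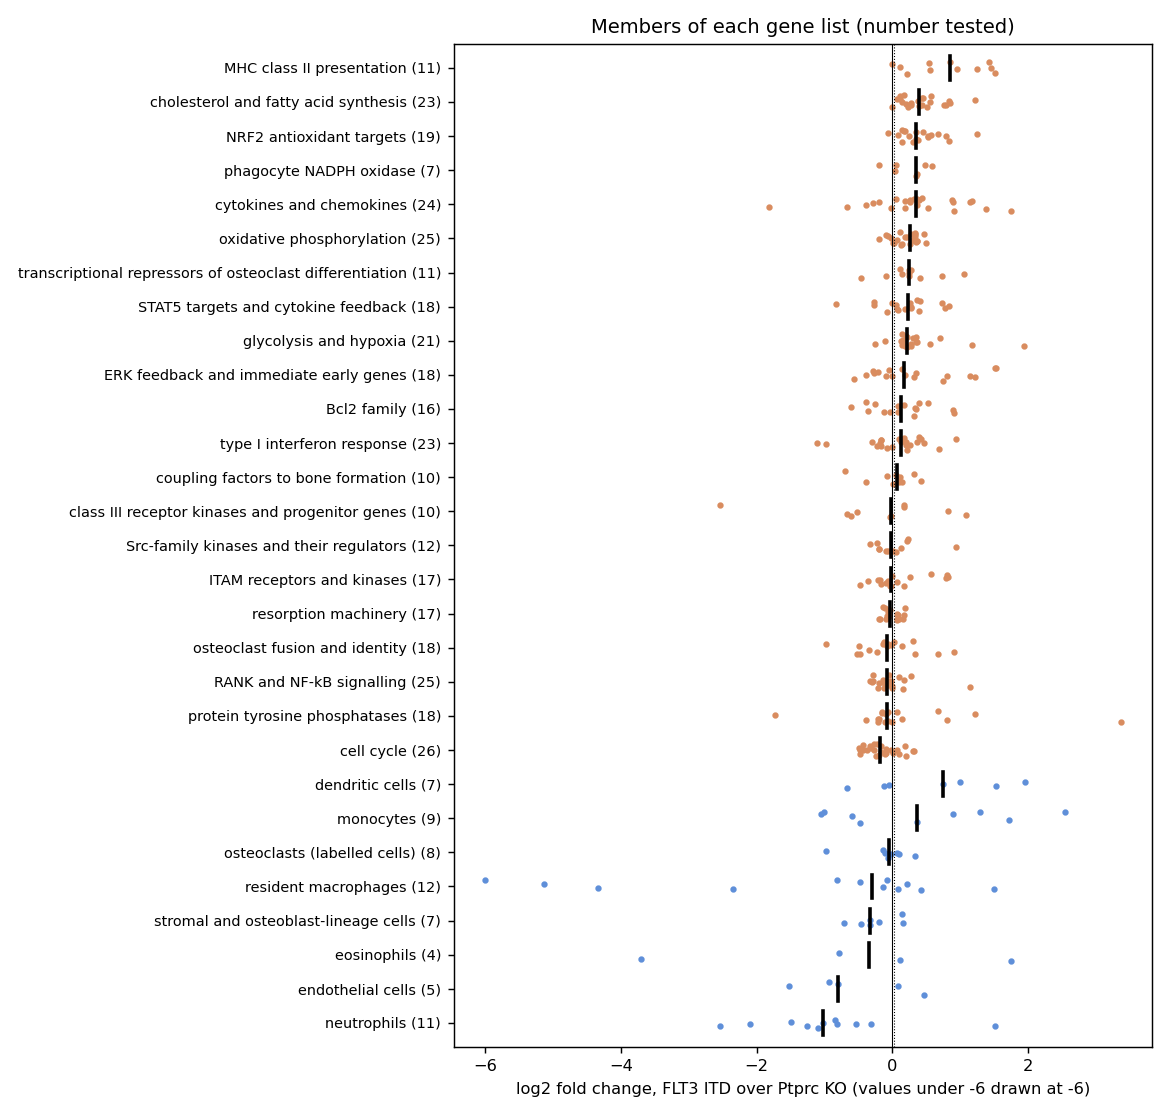
Log2 fold change of FLT3 ITD over Ptprc KO for each tested member of the gene lists, which were chosen with earlier results of these data known. The list median is a black bar and the median of all genes a dotted line. Values under -6 are drawn at -6. Resorption genes lie within -0.19 to 0.19, while all 23 cholesterol and fatty acid synthesis genes lie above 0.

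Lists for the pathways of the altered proteins came next. None of their members passed the test apart from Ptprc. Of the Src-family kinases and their regulators, the direct substrates and partners of CD45, 6 of 12 tested members had a positive log2 fold change and 6 a negative one, with a median of -0.02. Lyn, a Src-family kinase of myeloid cells, read 150.0, 144, 149 and 196 CPM in FLT3 ITD replicates 1 to 4, against 136, 156, 152 and 167 CPM in Ptprc KO replicates 1 to 4 (log2 fold change 0.06, SE 0.14), and Csk, which places the inhibitory phosphate, had a log2 fold change of -0.09 (SE 0.11). Of protein tyrosine phosphatases, Ptprc included, 6 of 18 members were positive in log2 fold change and 12 negative (median -0.08). Ptpn6 (SHP-1) had a log2 fold change of -0.20 (SE 0.14) and Ptprj (CD148), a receptor-like phosphatase that also acts on Src kinases, -0.21 (SE 0.23). Of ITAM receptors, adaptors and kinases, 8 of 17 members were positive in log2 fold change and 9 negative (median -0.02). The ITAM adaptor Tyrobp (DAP12) had a log2 fold change of 0.00305 (SE 0.22) and the adaptor Lat2 of 0.58 (SE 0.22).

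STAT5 targets and cytokine feedback genes lie downstream of FLT3. In that list 14 of 18 tested members had a positive log2 fold change and 4 a negative one, with a median of 0.23. Cish, a feedback inhibitor induced by STAT5, read 1.13, 0.65, 0.719 and 0.416 CPM in FLT3 ITD replicates 1 to 4, against 0.902, 1.27, 0.869 and 0.5 CPM in Ptprc KO replicates 1 to 4 (log2 fold change -0.27, SE 0.43). Socs2, another such inhibitor, read 1.91, 3.99, 1.94 and 1.5 CPM in FLT3 ITD replicates 1 to 4, against 3.28, 6.66, 4.84 and 1.75 CPM in Ptprc KO replicates 1 to 4 (log2 fold change -0.82, SE 0.42). The genotypes overlapped for each of these genes, both among the 4 negative members of a list that ran from -0.82 to 0.85. The median of the list was -0.40 without FLT3 ITD replicate 4. Of ERK feedback and immediate early genes, 10 of 18 members were positive in log2 fold change and 8 negative (median 0.17). Dusp6, the ERK phosphatase induced by ERK activity, read 62.2, 68.4, 61.2 and 111 CPM in FLT3 ITD replicates 1 to 4, against 28.3, 46.6, 51.5 and 46.7 CPM in Ptprc KO replicates 1 to 4, higher in every FLT3 ITD library (log2 fold change 0.81, SE 0.30, adjusted p 0.883). Of class III receptor kinases and progenitor genes, 4 of 10 members were positive in log2 fold change and 6 negative (median -0.02). Csf1r, the M-CSF receptor on which these cultures depend, read 1644, 1245, 1602 and 1929 CPM in FLT3 ITD replicates 1 to 4, against 1123, 1881, 1651 and 1877 CPM in Ptprc KO replicates 1 to 4 (log2 fold change -0.03, SE 0.25), and Cd34, a progenitor antigen, had a log2 fold change of 1.09 (SE 0.45). Of the Bcl2 family, 10 of 16 tested members had a positive log2 fold change and 6 a negative one, with a median of 0.14. Bcl2a1a, a survival gene with close copies that may share its reads, read 8.74, 12.7, 7.69 and 12.8 CPM in FLT3 ITD replicates 1 to 4, against 4.27, 6.87, 5.89 and 5.54 CPM in Ptprc KO replicates 1 to 4 without overlap (log2 fold change 0.89, SE 0.36, adjusted p 0.883).

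No member of the immune and redox lists passed the test. Of MHC class II presentation genes, 10 of 11 tested members had a positive log2 fold change and 1 a negative one, with a median of 0.85. H2-Aa, the class II alpha chain, read 80.8, 46.9, 93.5 and 989 CPM in FLT3 ITD replicates 1 to 4, against 18.8, 40.5, 13.6 and 369 CPM in Ptprc KO replicates 1 to 4 (log2 fold change 1.45, SE 1.34, adjusted p 0.885), and the replicate 4 of each genotype was the highest by far. The median of the list was -0.35 without FLT3 ITD replicate 4, 1.58 without Ptprc KO replicate 4 and 0.66 without both. Of cytokines and chemokines, 18 of 24 members were positive in log2 fold change and 6 negative (median 0.35). Il7, the lymphoid growth factor, read 1.72, 1.43, 1.63 and 2.0 CPM in FLT3 ITD replicates 1 to 4, against 0.902, 1.18, 0.907 and 0.679 CPM in Ptprc KO replicates 1 to 4 without overlap (log2 fold change 0.88, SE 0.32, adjusted p 0.883). Ccl22, a chemokine for regulatory T cells, had a log2 fold change of 1.16 (SE 0.52), Il1a, interleukin-1 alpha, -1.81 (SE 0.82) and Vegfa, an angiogenic factor, 1.17 (SE 0.61), each with overlapping libraries. Of the type I interferon response, 14 of 23 tested members had a positive log2 fold change and 9 a negative one, with a median of 0.13, and the median was -0.95 when both replicates 4 were left out. Of phagocyte NADPH oxidase subunits, 6 of 7 members were positive in log2 fold change and 1 negative (median 0.35), and the median was 0.0493 without FLT3 ITD replicate 4 and 0.0841 with the length trend removed. Of NRF2 antioxidant targets, 18 of 19 tested members had a positive log2 fold change and 1 a negative one, with a median of 0.36, which became -0.32 without FLT3 ITD replicate 4.

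Most genes of the metabolic lists had positive log2 fold changes, and none passed the test. Of cholesterol and fatty acid synthesis genes, 23 of 23 tested members had a positive log2 fold change and 0 a negative one, with a median of 0.40. Cyp51, the lanosterol demethylase, read 69.8, 54.5, 75.5 and 93.9 CPM in FLT3 ITD replicates 1 to 4, against 23.3, 45, 53.8 and 47.2 CPM in Ptprc KO replicates 1 to 4 (log2 fold change 0.79, SE 0.49, adjusted p 0.883). Msmo1, a sterol methyl oxidase, read 125, 143, 132 and 141 CPM in FLT3 ITD replicates 1 to 4, against 57, 97.9, 118 and 93.1 CPM in Ptprc KO replicates 1 to 4 (log2 fold change 0.57, SE 0.33, adjusted p 0.883). Like Sc5d, a sterol desaturase (log2 fold change 0.57, SE 0.37), both were higher in every FLT3 ITD library. The mean log2 CPM over the list was 5.99, 5.14, 6.08 and 5.32 in FLT3 ITD replicates 1 to 4, against 4.76, 5.52, 5.74 and 4.89 in Ptprc KO replicates 1 to 4, so the genotypes overlapped and Ptprc KO replicate 1 was the lowest. The median of this list stayed positive in all 18 settings that gave one, from 0.25 to 0.49. Of oxidative phosphorylation genes, 21 of 25 tested members had a positive log2 fold change and 4 a negative one, with a median of 0.26, but the median was -0.15 without FLT3 ITD replicate 2, the library with the strong length trend, and 0.00147 after the length trend was removed. Of glycolysis and hypoxia genes, 19 of 21 members were positive in log2 fold change and 2 negative (median 0.22). Gapdh, a glycolytic enzyme, read 1050.3, 1061, 969 and 1009.7 CPM in FLT3 ITD replicates 1 to 4, against 863, 960.2, 799 and 739.9 CPM in Ptprc KO replicates 1 to 4 (log2 fold change 0.28, SE 0.23, adjusted p 0.883). Of cell cycle genes, 7 of 26 tested members had a positive log2 fold change and 19 a negative one, with a median of -0.18. The mean log2 CPM of the cell cycle list was 5.93, 5.88, 5.94 and 3.77 in FLT3 ITD replicates 1 to 4, against 6.71, 5.16, 5.32 and 5.34 in Ptprc KO replicates 1 to 4, lowest in FLT3 ITD replicate 4 and highest in Ptprc KO replicate 1. Without FLT3 ITD replicate 4, medians also turned to -0.42 for the repressors of differentiation, -0.27 for the ERK list and -0.01 for cytokines, and without Ptprc KO replicate 1 the cell cycle median was 0.39. On the TPM scale, log2(TPM + 1), the all-gene median was -0.12 and the medians were -0.42 for interferon genes, -0.03 for the repressors, -0.04 for the ERK list and -0.09 for the coupling factors. Across all 34 lists, 2 of 411 distinct tested genes, Ptprc and Vsig4, passed the threshold. In FLT3 ITD, 11 were wholly higher and 6 wholly lower (4.14%, against 2.51% of all genes). The lists were chosen with earlier results of these data known, so no conclusion is drawn from the higher share.

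**Figure D5:**
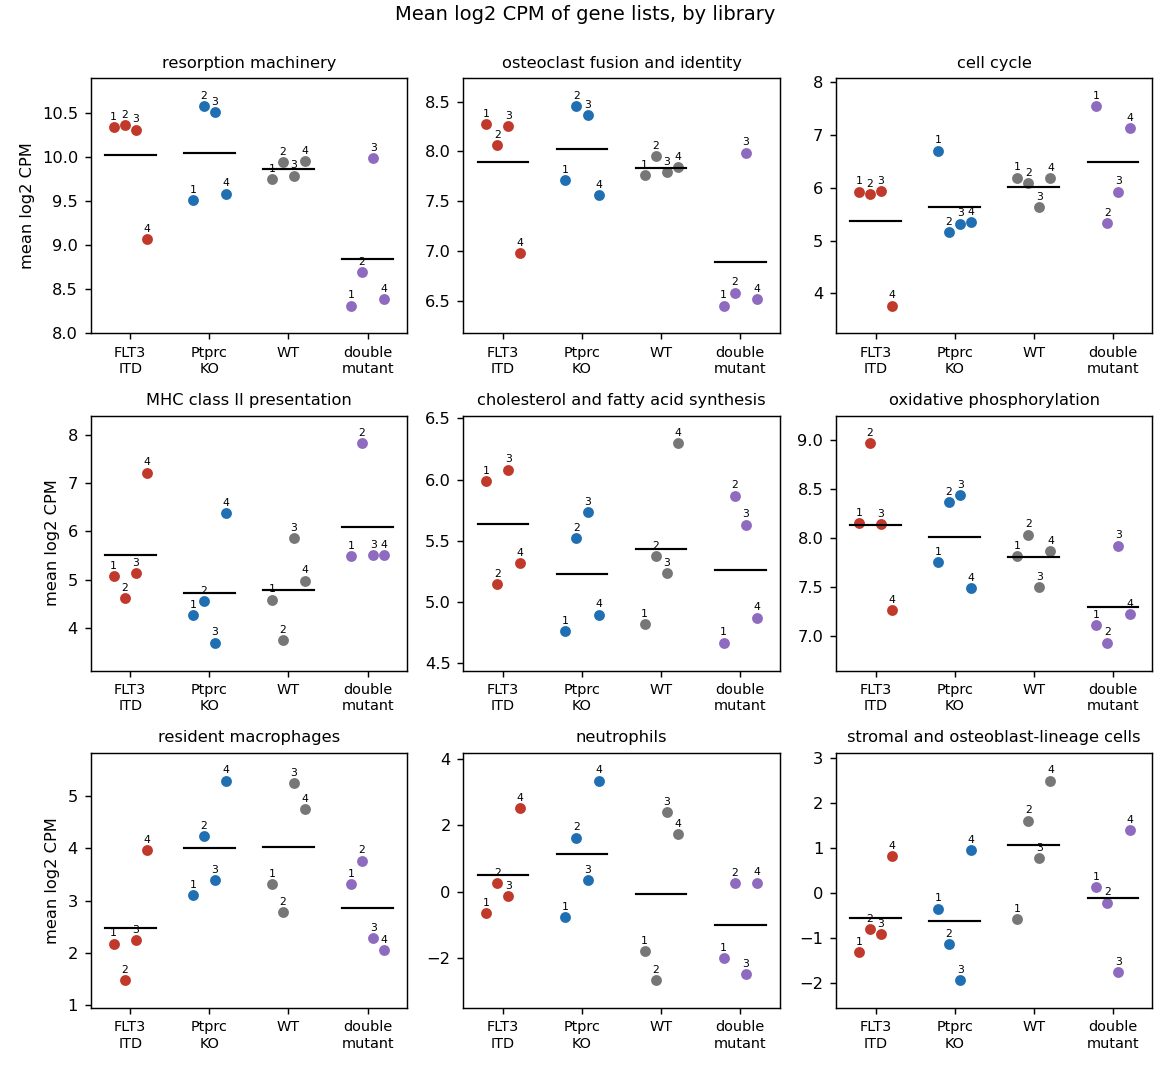
Mean log2 CPM of 9 gene lists in each library of the FLT3 ITD, Ptprc KO, WT and FLT3 ITD Ptprc KO cultures, numbered by replicate, with the group mean as a line. FLT3 ITD replicate 4 is the lowest FLT3 ITD library for resorption (9.07) and cell cycle (3.77) genes and the highest for MHC class II genes (7.22).

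Markers of the labelled cells and of others the cultures could hold were read as sums. All 8 osteoclast markers were present, summing to 15552 to 54205 CPM in FLT3 ITD and 24357 to 62929 CPM in Ptprc KO libraries, and 3 of 8 tested members had a positive log2 fold change and 5 a negative one, with a median of -0.05. That median was 0.24 without FLT3 ITD replicate 4, -0.24 without Ptprc KO replicate 4, and -0.42 with FLT3 ITD replicates 1 and 3 summed and replicate 2 left out. Resident macrophage markers summed to 157 to 3103 CPM in FLT3 ITD and 346 to 2980 CPM in Ptprc KO libraries. Monocyte markers summed to 20.5 to 381 CPM in FLT3 ITD and 13.3 to 169 CPM in Ptprc KO libraries, with Ly6c1 at 0 and a median log2 fold change of 0.37 over 9 tested members, which was -0.76 without FLT3 ITD replicate 4 and 1.69 without Ptprc KO replicate 4. Of the 9 monocyte members, 5 had a positive log2 fold change and 4 a negative one, from -1.04 to 2.56. Ccr2, the chemokine receptor of inflammatory monocytes, had a log2 fold change of 1.30 (SE 0.86). Neutrophil markers summed to 38.0 to 303 CPM in FLT3 ITD and 16.2 to 269 CPM in Ptprc KO libraries, and 1 of 11 tested members had a positive log2 fold change and 10 a negative one, with a median of -1.02. That median was -2.65 without FLT3 ITD replicate 4 and 0.35 without Ptprc KO replicate 4. Mpo, a granule enzyme, read 0.125, 0.0433, 0.344 and 0.624 CPM in FLT3 ITD replicates 1 to 4, against 0.632, 2.19, 0.718 and 3.14 CPM in Ptprc KO replicates 1 to 4 (log2 fold change -2.54, SE 1.40, adjusted p 0.883). Dendritic cell markers summed to 24.0 to 171 CPM in FLT3 ITD and 26.5 to 51.6 CPM in Ptprc KO libraries, with a median of 0.75 over 7 tested members, which was -0.32 without FLT3 ITD replicate 4. Of the 7 members, 4 had a positive log2 fold change and 3 a negative one, from -0.67 to 1.96. Ccr7, a homing receptor of mature dendritic cells, read 2.79, 2.04, 2.75 and 5.79 CPM in FLT3 ITD replicates 1 to 4, against 0.692, 1.71, 0.982 and 1.25 CPM in Ptprc KO replicates 1 to 4 without overlap (log2 fold change 1.53, SE 0.60, adjusted p 0.883).

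Markers of further lineages were summed in the same way. Stromal markers summed to 8.88 to 21 CPM in FLT3 ITD and 8.73 to 19.0 CPM in Ptprc KO libraries (median log2 fold change -0.32 over 7 tested members, -1.39 without FLT3 ITD replicate 4 and 0.79 without Ptprc KO replicate 4). Endothelial markers summed to 24.1 to 89.9 CPM in FLT3 ITD and 33.9 to 63.1 CPM in Ptprc KO libraries with Tek and Cldn5 at 0, and the median was -0.80 over 5 tested members and 0.14 without Ptprc KO replicate 1. Of the 5 members, 2 had a positive log2 fold change and 3 a negative one. Cdh5, VE-cadherin, read 0.313, 0.0866, 0.344 and 0.25 CPM in FLT3 ITD replicates 1 to 4, against 0.752, 0.832, 0.642 and 0.715 CPM in Ptprc KO replicates 1 to 4 (log2 fold change -1.52, SE 0.35, adjusted p 0.249). Megakaryocyte markers summed to 26.6 to 255 CPM in FLT3 ITD and 10.6 to 323 CPM in Ptprc KO libraries with Gp9 and Gp1bb at 0 (median -0.31, 2 tested). Eosinophil markers summed to 28 to 87.6 CPM in FLT3 ITD and 37.9 to 68.9 CPM in Ptprc KO libraries with Epx at 0 (median -0.34, 4 tested). Markers of T and NK cells summed to 0.217 to 11.4 CPM in FLT3 ITD and 1.95 to 47.4 CPM in Ptprc KO libraries with Cd3e at 0 (median -0.89, 2 tested), and those of B cells to 0.26 to 0.957 CPM in FLT3 ITD and 0.361 to 3.86 CPM in Ptprc KO libraries (1 tested, -1.57). Erythroid markers summed to 0.0313 to 0.0938 CPM in FLT3 ITD and 0.15 to 0.875 CPM in Ptprc KO libraries with Hba-a2, Hbb-bt and Gata1 among those at 0 (1 tested, Epor, -5.24), and those of mast cells and basophils to 0.0938 to 0.416 CPM in FLT3 ITD and 0.0902 to 0.75 CPM in Ptprc KO libraries with 4 of 8 at 0 and none tested. The part of other cell types in the differences between the genotypes was not tested.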

How the data were processed

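Poly(A) RNA from 500 ng of total RNA per culture was made into directional libraries with UMI adaptors, per the labels' protocols. The submitters' processing notes name STAR 2.7.6a, featureCounts 2.0.3, UMI-tools 1.1.1, cutadapt 4.2, bcl2fastq 2.20.0.422 and the build GRCm38.p6. Settings and use of strand are not given in the sources used here. The authors deposited raw counts and TPM for 21936 gene IDs, of which 21894 were found in GENCODE M21 (GRCm38), used for positions. Gene lengths were those deposited with the counts. The main test was edgeR 4.0.16 (R 4.3.3): filterByExpr, TMM, robust quasi-likelihood fit over 16 libraries with 4 group means (12 residual degrees of freedom), leaving 12093 genes and a coefficient of variation of 0.37. CPM use TMM-scaled totals; scores are mean log2 CPM with a prior count of 2. P-values were Benjamini-Hochberg adjusted over all genes tested (threshold 0.05). The pipeline was tested on simulated data. The deposited TPM entered only the limma 3.58.1 alternatives, as log2(TPM + 1) or log2(TPM + 0.1); DESeq2 1.42.0 and sva 3.50.0 were further alternatives. Genes were named where called, or among the 12 lowest unadjusted p in each direction with non-overlapping libraries and a mean of at least 5 CPM, leaving out predicted and Y-linked genes; list members were also named. The members and lists were chosen with earlier results of these data known. Replicate numbers come from the labels: same-numbered FLT3 ITD and Ptprc KO libraries had correlations of deviations of 0.158, 0.240, 0.473 and 0.885, all over 0.1, so blocked values are given where they change a call, although replicates 1 and 2 of FLT3 ITD correlated more with Ptprc KO replicate 3 (0.499 and 0.526). Intervals cover counting error only. The series text speaks of more samples than the 16 analysed here.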

Additional observations from a re-analysis of the deposited data

Results flagged for a closer look

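A library was marked where its gap to the nearest of the other 3 in its genotype exceeded Dixon's 95% critical value as a share of the range. This held for 25 of 117 groups of 4 checked. Of the marked libraries, 16 were FLT3 ITD replicate 4, 4 FLT3 ITD replicate 2 and 5 a Ptprc KO library. The nominal rate of 1 in 20 assumes independent, normally distributed values, so it cannot be set against this count. The groups share libraries, FLT3 ITD replicates 1 and 3 are nearly alike, and a single count beside 3 libraries at 0 is always marked.

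FLT3 ITD replicate 4 was far above the other FLT3 ITD libraries for C1qtnf6 (21.8 CPM, others at most 10.1), Cd5l (10.5 CPM, others at most 2.60), Igf2bp2 (18.6 CPM, others at most 8.65), Rgs2 (104 CPM, others at most 54.1) and Vcam1 (10.9 CPM, others at most 1.09). Its mean log2 CPM was low for resorption machinery (9.07, others at least 10.3), osteoclast fusion and identity (6.98, others at least 8.07), osteoclast markers (8.91, others at least 10.6), cell cycle (3.77, others at least 5.88), coupling factors (5.01, others at least 5.44) and the Bcl2 family (4.54, others at least 4.70). It was high for repressors of differentiation (5.77, others at most 4.19), STAT5 targets (4.59, others at most 3.34), ERK feedback genes (5.36, others at most 3.95), cytokines and chemokines (4.99, others at most 3.05) and NADPH oxidase subunits (8.92, others at most 8.07). FLT3 ITD replicate 2, the library with the strong length trend, was high for Xlr4c (9.36 CPM, others at most 3.98) and Mospd3 (39.8 CPM, others at most 32.8), and low for Src-family kinases (5.53, others at least 5.94) and endothelial markers (0.63, others at least 1.78).

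In Ptprc KO cultures, replicate 1 was high for cell cycle genes (6.71, others at most 5.35), replicate 4 for NRF2 targets (8.22, others at most 6.73) and replicate 2 for Xlr4c (1.23 CPM, others at most 0.756). Glrp1 in replicate 4 (0.0357 CPM) and Rbm44 in replicate 2 (0.0438 CPM) were single counts beside 3 libraries at 0. The causes of these differences were not tested.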

How the results depend on the processing

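The count of 9 genes moved by over 1.5 times under 18 of 23 settings, including each of the 8 that left out 1 library, which gave 2 to 15. It was 1 with a mean count of at least 50, 3 with the replicate block, 4 with only the 8 single-mutant libraries, 48 with DESeq2 (16 higher, 32 lower), 374 with voom and quality weights (161 higher, 213 lower), 3 with FLT3 ITD libraries 1 and 3 summed, 2 with library 2 also left out, and 41 with 1 surrogate variable. Of 2 settings chosen after seeing the data, the 8 libraries with the replicate block gave 18 (9 in each direction) and leaving out both libraries numbered 4 gave 2. It was 9 with RLE size factors, 7 with no filter, 8 with the length trend removed, and 6 with either TPM setting, where log2(TPM + 1) gave 2 higher and 4 lower at an all-gene median of -0.12. The causes were not tested. All 9 genes were also called by DESeq2, voom, the surrogate-variable fit and the fit without FLT3 ITD replicate 4. Across the 15 settings other than leaving out 1 library, Mospd3 was called in 4 and Xlr4c in 6. Among those settings that measured the gene, Rbm44 was called in 6 of 10, Vsig4 in 8 of 14, Paqr9 in 8 of 12 and Glrp1 in 9 of 14. With the replicate block Ptprc, Cdh13 and Paqr9 remained. Every named gene kept its direction in all 675 gene and setting pairs. The named genes have libraries that do not overlap between the genotypes, so a kept direction was nearly fixed beforehand and does not measure stability. Of 522 list medians, 17 moved by more than 1 SD of the list score among libraries within the 2 genotypes. That SD is wide, so a median could change sign without being counted, and the 17 do not measure stability. The NRF2 median went from 0.36 to -0.32 without FLT3 ITD replicate 4. The oxidative phosphorylation median went from 0.26 to -0.30 with FLT3 ITD libraries 1 and 3 summed and library 2 left out. Depth limits the genes under 1 CPM most: Rbm44 rests on 44 counts in FLT3 ITD and 1 in Ptprc KO libraries.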
